A study of Homo sapiens with 38 samples.

Results

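The small RNA of exomeres was compared between 2 ways of growing DiFi, an established human colorectal cancer cell line. Exomeres are small particles without a membrane that stay in the supernatant when small extracellular vesicles (sEV) are pelleted and come down in a longer spin; here both were isolated by ultracentrifugation (UC), and the comparison takes the UC exomere libraries, 3 from flat (2D) culture and 3 from 3D culture, of 38 libraries in the series. No gene was changed and no drug was given in either group. The 2D cells grew in DMEM with bovine growth serum and were washed before medium without serum was conditioned for 48 h, in 3 separate pools that were concentrated on a filter before the spins. The 3D cells grew in a hollow-fibre bioreactor, whose harvests were cleared at other speeds, were not described as concentrated and were kept as 4 pools cut into aliquots. Serum, medium, concentration and clearing therefore differ between the groups together with the culture, and their parts cannot be told apart. The labels tie no library letter (A, B, C) to a pool, so the spread between libraries of a group may be technical. The main fits of single features took this spread from all 38 libraries of the series. Their p-values therefore do not measure the spread of the UC exomere libraries alone. Fits made on the UC exomere libraries alone, and the permutation of their class shares, rest on these libraries only. RNA was treated with a demethylating enzyme mix before library preparation.

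Small RNA outside cells consists largely of short structured RNAs and their fragments, bound to protein or held in vesicles. Y RNAs are small hairpin-shaped transcripts of RNA polymerase III that bind the Ro60 and La proteins and are among the RNAs most often seen outside cells. MicroRNAs (miRNAs) are short guides that sit in Argonaute proteins and find their targets mainly through the seed, bases 2 to 8. MiR-21 is known as an oncogenic miRNA of colorectal and other tumours, and let-7 as a family of tumour-suppressing miRNAs.

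The sequences on which the results turn are given first, 5′ to 3′. Among the Y RNAs, RNY1 (chr7:148987136-148987248, minus strand) and RNY4 (chr7:148963315-148963410, plus strand), the latter summed with its near copies, held most 3D counts. Only RNY1 and RNY4 themselves are printed. They are taken from GENCODE 29 on GRCh38, and capitals mark the run of T at the 3′ end of each.
RNY1: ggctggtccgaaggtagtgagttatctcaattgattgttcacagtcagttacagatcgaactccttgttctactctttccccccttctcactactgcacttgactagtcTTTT
RNY4: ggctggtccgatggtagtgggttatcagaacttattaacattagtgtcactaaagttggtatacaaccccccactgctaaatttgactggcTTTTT
The miRNAs come from RefSeq on GRCh38.p14, with the seed in capitals. The first is the largest miRNA of the 2D libraries, the second that of the 3D libraries, and the 3 after it share the second one's seed.
hsa-miR-21-5p: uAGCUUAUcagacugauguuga
hsa-miR-92a-3p: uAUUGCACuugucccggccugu
hsa-miR-92b-3p: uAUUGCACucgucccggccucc
hsa-miR-25-3p: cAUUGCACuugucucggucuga
hsa-miR-32-5p: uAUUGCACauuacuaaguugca
The next 5 are members of the let-7 family that differ from let-7a-5p by 1 to 4 substitutions, all behind the shared seed.
hsa-let-7a-5p: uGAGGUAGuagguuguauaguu
hsa-let-7b-5p: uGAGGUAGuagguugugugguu
hsa-let-7f-5p: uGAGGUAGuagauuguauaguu
hsa-let-7g-5p: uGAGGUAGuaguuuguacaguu
hsa-let-7i-5p: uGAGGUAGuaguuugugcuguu
The pair of miR-221 and miR-222 shares another seed, and miR-592 and miR-660-3p are 2 of the miRNAs that were at or near 0 counts in the 3D libraries.
hsa-miR-221-3p: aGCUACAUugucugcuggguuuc
hsa-miR-222-3p: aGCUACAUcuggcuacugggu
hsa-miR-592: uUGUGUCAauaugcgaugaugu
hsa-miR-660-3p: aCCUCCUGugugcauggauua
The tRNA that rose most against its class is shown as the first gene sequence of its entry in the deposited table (chr6:28474552-28474625, minus strand), with the anticodon in capitals.
tRNA-Thr-TGT: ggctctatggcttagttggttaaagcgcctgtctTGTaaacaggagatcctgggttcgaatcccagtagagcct

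The 6 libraries held between 3380807 and 15344549 counts, against 81079 to 16991360 in the series without 1 near-empty supermere library of 46 counts, which stayed in the fits. Library totals do not separate the cultures. Over 3717 features, Pearson's r of log2 CPM (counts per 1000000 counts of the library) was 0.829 to 0.883 between 2D libraries, 0.791 to 0.851 between 3D libraries and 0.499 to 0.755 across cultures. Library C stood apart in both cultures. In 3D library C, tRNA made up 5.94% of the counts against 0.770% and 0.948% in A and B. RNU11, a minor spliceosomal snRNA, held 23.7% of snRNA counts in 2D library C and 36.3% in 3D library C, and between 4.04% and 6.78% in the other 4. What the shared letter stands for is not given in the sources used here. The epithelial miRNAs of the miR-200 family were present in all 6 libraries, at 0.375% to 1.76% of miRNA counts. A list of markers of blood, endothelium, liver, muscle and mesenchyme also held miR-16. It summed to 0.125%, 0.137% and 0.151% of miRNA counts in 2D and to 0.126%, 0.133% and 0.138% in 3D. These ranges overlap. MiR-16-5p, the largest member except in 3D library C, held 0.0880%, 0.105% and 0.0960% in 2D and 0.0810%, 0.0679% and 0.00911% in 3D. The 2D sums thus rest mostly on miR-16-5p and the sum of 3D library C does not. The overlap therefore does not describe the other members or compare each source, and a sum without miR-16 was not made. Within miRNA, 3 of the 12 tested members of the list passed as higher (miR-1-3p, miR-142-3p and miR-126-3p) and miR-150-3p as lower. Of all tested miRNAs 12.1% passed as higher and 5.74% as lower. MiR-1-3p (log2 4.93, adjusted p = 0.0039), a miRNA of muscle, held 0.111% of miRNA counts in 3D library C against 0.00140% and 0.00596% in A and B, and at most 0.00264% in 2D. The part of these markers in the results was not tested.

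Y RNA replaced miRNA as the largest class. Y RNA held 9.51%, 9.66% and 8.82% of the counts in 2D libraries A, B and C, and 75.5%, 83.9% and 66.4% in 3D libraries A, B and C. MiRNA held 60.8%, 69.2% and 59.3% in 2D and 12.7%, 7.77% and 8.13% in 3D. Neither pair of ranges came near to touching, and the mean share was 8.07 times as high in 3D for Y RNA and 6.61 times as high in 2D for miRNA. Fragments of long noncoding transcripts took 4.79% ± 2.29 (SD, n = 3) in 2D and 0.438% ± 0.0420 in 3D, RNA of endogenous retroviruses 2.59% ± 1.37 and 0.188% ± 0.0465, and snoRNA, the guides of rRNA modification, 0.875% ± 0.162 and 0.129% ± 0.0412. The class named misc_RNA, which holds vault RNA, 7SL and 7SK, was the other one that was higher in 3D, with 0.0952% ± 0.0329 in 2D and 0.578% ± 0.451 in 3D. Shares of snRNA (14.6%, 10.5% and 24.6% in 2D, 8.31%, 4.79% and 14.9% in 3D), rRNA, tRNA and mitochondrial tRNA overlapped between the cultures. Thus 6 of 10 classes did not overlap, each with a two-sided exact permutation p of 0.10, the smallest that 3 against 3 libraries allow (0.167 after adjustment over the 10 classes).

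**Figure D1:**
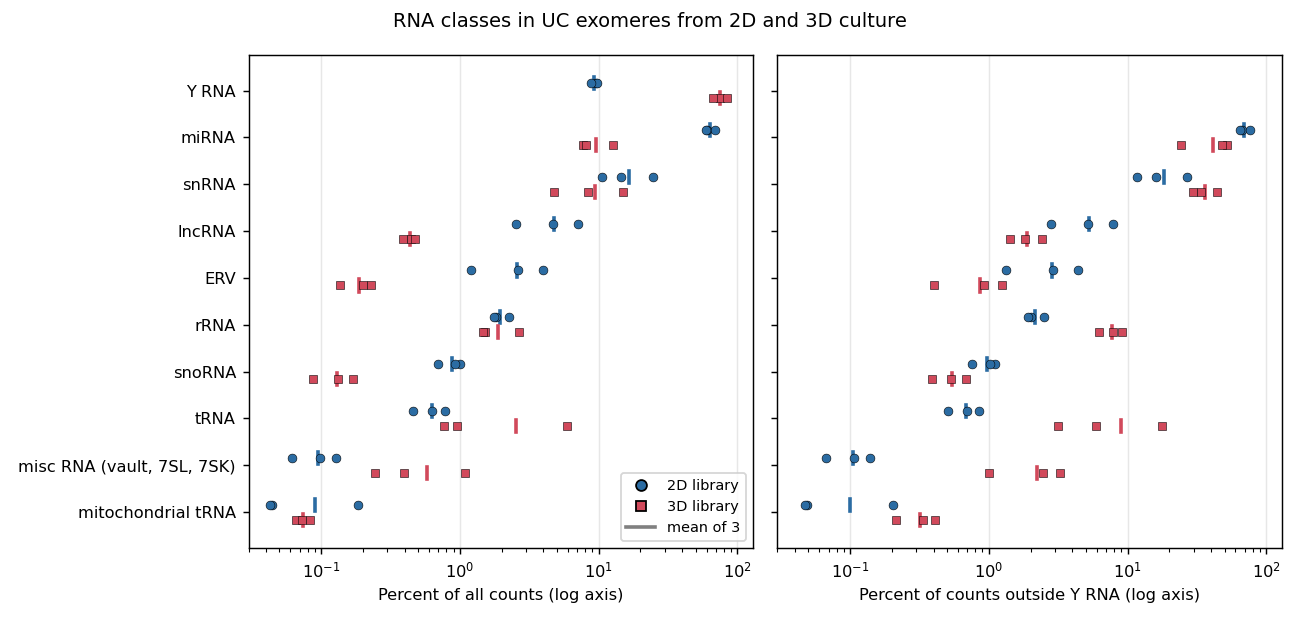
Share of all counts (percent, log axis) taken by each of the 10 RNA classes in the 6 UC exomere libraries; points are libraries and bars are group means. Y RNA and misc_RNA lie higher in all 3D libraries, and miRNA, lncRNA, retroviral RNA and snoRNA lie lower.

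A share cannot tell a loss of one RNA from a gain of another, nor fewer particles from less RNA per particle. The shares were therefore also taken over the counts outside Y RNA, where all 9 remaining classes separated (exact permutation p = 0.10 each, and 0.10 after adjustment over the 9). MiRNA was still lower in 3D, at 69.6% ± 6.12 in 2D and 41.4% ± 15.0 in 3D. On this scale snRNA stood at 18.3% ± 7.91 in 2D and 36.1% ± 7.62 in 3D, rRNA at 2.14% ± 0.307 and 7.74% ± 1.48, and tRNA at 0.689% ± 0.172 and 8.91% ± 7.74. The tRNA mean rests on library C, which stood at 17.7% against 3.15% and 5.88% in A and B. Long noncoding RNA stayed lower, at 5.29% ± 2.54 and 1.89% ± 0.512, and so did snoRNA, at 0.966% ± 0.182 and 0.540% ± 0.149.

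The shift of classes makes the fold change of any single RNA depend on what it is measured against. Each feature was tested with edgeR in 3 ways, as a share of its own RNA class, with TMM scaling (which lines up the bulk of features between libraries) and against the library total. An adjusted p below 0.05 is called a pass. Of 7045 features tested within their class, 111 passed as higher in 3D (1.58%) and 103 as lower (1.46%), with a median log2 difference of -1.08 over all features. When the 6 libraries were fitted alone, 25 of 5432 passed: 10 miRNAs as higher and 9 as lower, 3 snRNAs as lower, SNORD123 and RNY1 as lower and EPCAM-DT as higher. Passes of other single features within their class did not recur in that fit. With TMM, 354 (5.02%) were higher and 247 (3.51%) lower, with a median of -1.26. Against library totals, 80 (1.14%) were higher and 3660 (52%) lower, the median being -4.02. With RLE factors (the scaling of DESeq2) 187 were higher and 1644 lower, and with totals outside Y RNA 35.7% of 627 calls were higher. The TMM factors alone add 2.67 to the log2 difference of this comparison. In all 3 ways 105 features passed in the same direction, 41 higher and 64 lower. Of the 105, miRNAs gave 17 higher and 28 lower, snoRNAs 13 and 3, snRNAs 8 and 6, and long noncoding entries 1 and 24. Differences within the class are given below unless another scale is named.

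**Figure D2:**
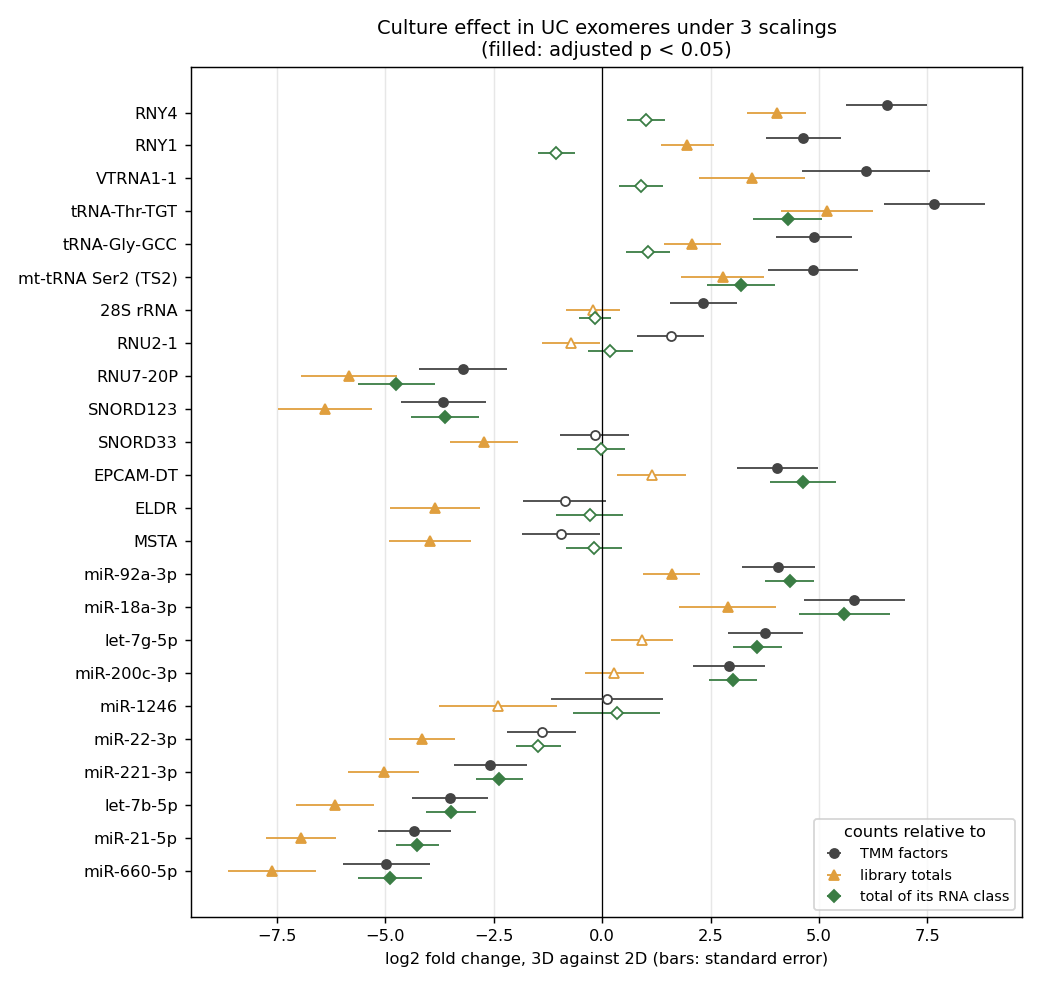
Log2 difference of 3D against 2D for the RNAs that the results turn on, under 3 scalings, with bars of 1 standard error. MiR-92a-3p lies above 0 and miR-21-5p below 0 under all 3, while 28S rRNA lies above 0 with TMM alone.

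RNY1 and RNY4 with its near copies held most Y RNA counts, RNY1 more in 2D and the RNY4 group more in 3D. RNY1 had 53862, 54601 and 44110 CPM in 2D and 210514, 239377 and 146160.0 CPM in 3D, a mean 3.91 times as high. RNY4 shares nearly all its reads with RNY4P7, RNY4P10 and an unnamed Y RNA copy (ENSG00000201778), whose transcripts differ from it by 7, 8 and 12 edits, so the 4 entries were summed. Together they had 28618, 30610 and 34351 CPM in 2D and 504410, 567134 and 451371 CPM in 3D. As a part of Y RNA, the RNY4 group held 30.1%, 31.7% and 39.0% in 2D and 66.8%, 67.6% and 67.9% in 3D. RNY1 held 56.6%, 56.5% and 50.0% in 2D and 27.9%, 28.5% and 22.002% in 3D. The ranges of both are apart, and the order of the 2 is turned between the cultures. Neither entry passed within its class in the fit of all libraries (log2 -1.06, SE 0.43, adjusted p = 0.13 for RNY1; 1.00, SE 0.44, 0.15 for RNY4), while with the 6 libraries alone RNY1 passed as lower (-1.06, SE 0.16, adjusted p = 0.042) and RNY4 had 1.00 (SE 0.16, 0.054). Both passed with TMM (4.64, SE 0.86, adjusted p = 4.4e-05 for RNY1; 6.56, SE 0.93, 6.2e-09 for RNY4) and against library totals (1.97, SE 0.61, 0.011; 4.02, SE 0.68, 1.4e-05), and both kept passing with TMM without any 1 of the 6 libraries.

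The other Y RNA parents were rare. RNY3 had 13.8, 20.6 and 7.59 CPM in 2D and 4.41, 7.08 and 2.62 CPM in 3D, all 3D values under the 2D values, as in 65.5% of all features tested. Its share of Y RNA was lower by a log2 difference of -4.57 (SE 0.78, adjusted p = 1.1e-05), which passed without each library. RNY5 has no entry under its own name, but a long noncoding entry on chromosome 7 (ENSG00000286171, chr7:148941483-148941638, plus strand) holds the RefSeq position of RNY5, bases 148941488 to 148941571. That entry had 129, 66.7 and 302 CPM in 2D and 213, 169 and 1785 CPM in 3D, ranges that overlap. It passed in all 3 ways (4.95 within long noncoding RNA, SE 1.16, adjusted p = 0.013). Within the class the call ended without 2D library A, 2D library B or 3D library C (adjusted p up to 0.10), and with TMM without 3D library C (0.092). Among 279 Y RNA entries tested, most were copies and pseudogenes that share reads with the parents. Of the 279, 47.7% were higher with TMM, and 17 (6.09%) passed as lower within the class. Over all features these shares were 5.02% and 1.46%. Against library totals 20 of the 279 were higher, where 1.14% of all features were.

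Vault RNAs, the small RNAs of the vault particle, led the misc_RNA class. VTRNA1-1 had 488, 276 and 220.4 CPM in 2D and 1550.2, 2699 and 6535 CPM in 3D, with no overlap and a mean 10.9 times as high. VTRNA1-3 had 9.93, 5.60 and 3.29 CPM in 2D and 23.8, 46.6 and 115 CPM in 3D. Library C was the highest 3D library for both. Of the 6 vault entries tested, 4 passed as higher with TMM and also against library totals (median log2 5.87 and 3.37 over the list), where 5.02% and 1.14% of all features and 19 and 6 of 103 misc_RNA entries did. VTRNA1-3 (5.99 with TMM, SE 1.07, adjusted p = 1.2e-05) kept its call without any 1 library, whereas VTRNA1-1 (6.08, SE 1.48, 0.0095) lost it without 2D library A (0.066) and VTRNA1-2 (5.76, SE 1.70, 0.035) in 4 of 6 such fits (2D A, 2D B, 2D C or 3D C, adjusted p up to 0.13). As a part of misc_RNA VTRNA1-1 held 38.4%, 28.4% and 36.0% in 2D and 63.2%, 67.8% and 59.8% in 3D, but that difference did not pass (0.89, SE 0.50, adjusted p = 0.23). RN7SL2, a gene of the 7SL RNA of the signal recognition particle, had 41.0, 40.9 and 9.42 CPM in 2D and 45.3, 37.1 and 29.6 CPM in 3D, which overlap, and it did not pass against library totals (0.29, adjusted p = 0.78).

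**Figure D3:**
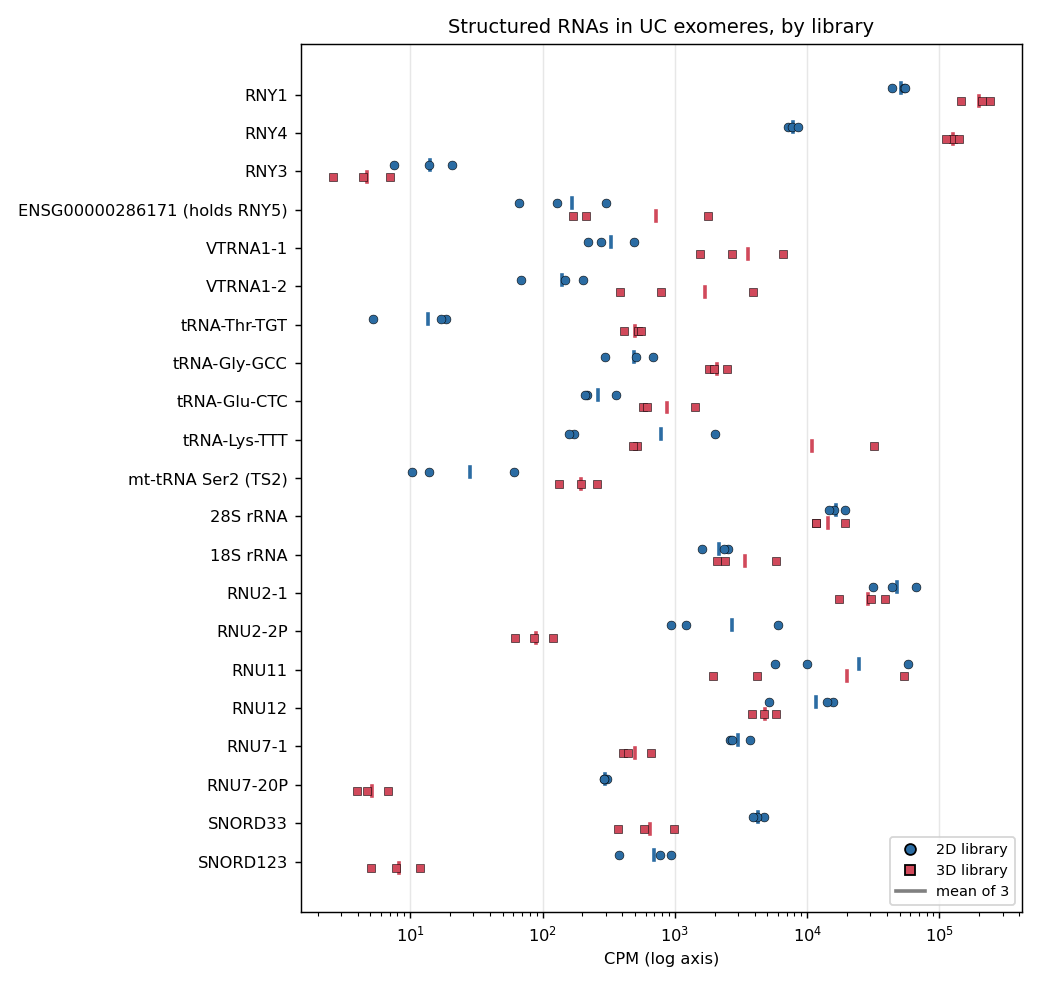
CPM (log axis) of Y, vault, transfer, ribosomal and small nuclear RNAs in each of the 6 libraries. RNY4, VTRNA1-1 and tRNA-Thr-TGT lie higher in all 3D libraries, RNU7-20P and SNORD123 lower.

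Within miRNA, miR-21-5p led in 2D and miR-92a-3p led in 3D. MiR-21-5p, encoded inside the VMP1 gene (chr17:59841273-59841294, plus strand), held 26.3%, 35.9% and 31.8% of miRNA counts in 2D and 2.03%, 2.08% and 0.790% in 3D. MiR-92a-3p, a product of the miR-17-92 cluster, held 1.63%, 1.43% and 2.17% in 2D and 32.8%, 35.6% and 36.3% in 3D. Each was the most abundant miRNA in all libraries of its own culture, and the ranges are far apart. The log2 difference in share was -4.26 for miR-21-5p (SE 0.50, adjusted p = 5.6e-11) and 4.32 for miR-92a-3p (SE 0.57, adjusted p = 5.3e-09). In CPM miR-21-5p was 123-fold lower in 3D, and miR-92a-3p rose even against the library total, from 9881, 9919 and 12843 CPM to 41649, 27679 and 29506 CPM (log2 1.60, SE 0.66, adjusted p = 0.035). Both passed in all 3 ways, also in a fit of the 6 libraries alone within the class (adjusted p = 0.016 and 0.00097).

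The rest of the leading miRNAs moved less. The 10 most abundant held 70.2% to 74.2% of miRNA counts in 2D libraries and 67.6% to 77.5% in 3D libraries. MiR-1246 held 8.34%, 5.74% and 7.38% in 2D and 7.77%, 7.601% and 11.6% in 3D (log2 0.33, SE 1.01, adjusted p = 0.91). All 19 bases of miR-1246 occur in RNU2-1, the U2 snRNA (its bases 94 to 112), and only the first 14 in RNU2-2P, so reads of the miRNA entry and of U2 cannot be told apart. The sequence is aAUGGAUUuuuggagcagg, seed in capitals. MiR-22-3p held 5.43%, 6.70% and 2.84% in 2D and 2.30%, 1.81% and 1.29% in 3D, and miR-335-5p 3.92%, 3.34% and 3.64% against 5.86%, 7.57% and 5.56%. Neither passed (adjusted p = 0.089 and 0.29), although the ranges of both are apart.

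**Figure D4:**
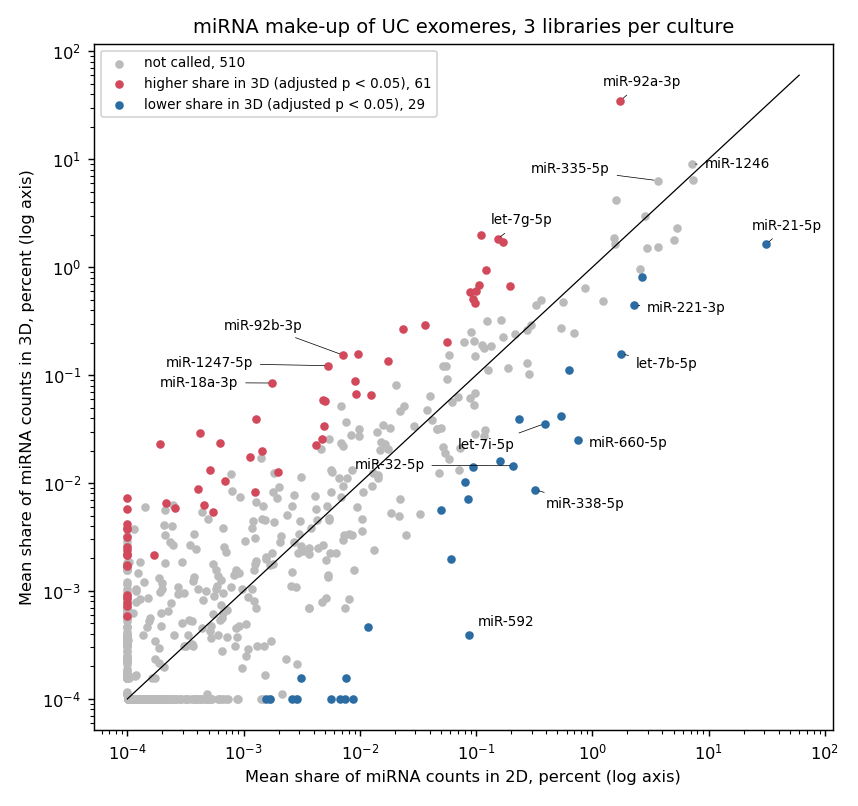
Mean share of miRNA counts in 3D against 2D (percent, both axes log, 3 libraries each) for 600 miRNAs; colours mark the 61 with a higher and the 29 with a lower share in 3D by edgeR, and values under 0.0001% are drawn there. MiR-92a-3p stands above the diagonal and miR-21-5p below it, each near the top of its culture.

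Of 505 miRNAs tested within the class, 61 (12.1%) passed as higher in 3D and 29 (5.74%) as lower. A mean of 50 CPM in the higher culture was reached by 24 of the 61 and 20 of the 29, and the median of that mean was 22.8 CPM for the higher and 540.4 CPM for the lower ones. Of those that passed in all 3 ways, library totals with their overall shift to lower values included, 2 of 17 higher and 19 of 28 lower miRNAs reached 50 CPM. Across 166 miRNAs, all measured in the same 6 libraries, GC content of the mature sequence and the change in share had a Pearson r of -0.0047 and a Spearman rho of -0.020, given as a description without a test.

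MiRNAs that share the seed of miR-92a-3p did not move as 1 group. Positions are counted from 1 at the 5′ end, with the base of the first-named miRNA first. MiR-92b-3p differs from miR-92a-3p by U10C, G21C and U22C, miR-25-3p by U1C, C14U, C18U and U22A, and miR-32-5p by 11 substitutions, the first of them U9A. MiR-92b-3p had 44.8, 25.8 and 61.4 CPM in 2D and 143.96, 97.3 and 180 CPM in 3D, which do not overlap, and passed as higher (log2 4.42, SE 0.90, adjusted p = 0.00036). MiR-25-3p had 305, 347 and 1584 CPM in 2D and 1285, 742 and 717 CPM in 3D, which overlap through 2D library C. Its share was higher by 2.95 (SE 0.67, adjusted p = 0.0023), but without 2D library B the adjusted p was 0.053. MiR-32-5p, with the same seed, had 1371, 1611 and 1002 CPM in 2D and 24.6, 17.7 and 1.02 CPM in 3D, and its share fell (-3.86, SE 0.82, adjusted p = 0.00083). With the 6 libraries alone miR-92a-3p and miR-92b-3p (adjusted p = 0.041) passed, and miR-32-5p did not (0.070). MiR-363-3p, the fifth carrier of the seed, had no count in any of the 6 libraries.

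The let-7 family split in the same manner. Let-7b-5p, the largest member in 2D, had 12498, 12794 and 8304 CPM in 2D and 252, 104 and 114 CPM in 3D. Its share of miRNA fell by 3.49 on the log2 scale (SE 0.58, adjusted p = 6.1e-06), and that of let-7i-5p by 3.45 (SE 0.67, adjusted p = 0.00015). Let-7g-5p, the largest member in 3D, had 1090.0, 1434 and 426 CPM in 2D and 3306, 1576 and 690 CPM in 3D, which overlap. As a share of miRNA let-7g-5p rose by 3.58 (SE 0.57, adjusted p = 1.7e-06). Let-7a-5p and let-7f-5p passed as higher in share (2.26 and 2.44), both without that call when 2D library C was left out (adjusted p = 0.10 and 0.058). Let-7d-5p, let-7e-5p and miR-98-5p passed as higher too, and let-7c-5p did not pass (1.22, adjusted p = 0.21). Against library totals let-7b-5p and let-7i-5p stayed lower (-6.16 and -6.18), whereas let-7a-5p and let-7f-5p had differences of -0.43 and -0.26 and let-7g-5p of 0.92, none of which passed. Of 11 entries with this seed, 2 thus fell on each of the 3 scales (let-7i-5p with TMM not without 3D library C, adjusted p = 0.069), and 6 rose within miRNA without passing against library totals. With the 6 libraries alone let-7b-5p and let-7i-5p passed within miRNA (adjusted p = 0.0073 and 0.040), while the 6 that rose had an unadjusted p below 0.05 and did not pass (let-7g-5p, adjusted p = 0.059). In sequence, let-7b-5p differs from let-7a-5p by A17G and A19G, let-7i-5p by G12U, A17G, U18C and A19U, let-7f-5p by G12A, and let-7g-5p by G12U and U18C. The summed CPM of the 19 entries of the wider family was 16640.5 ± 3481 in 2D and 3263 ± 1925 in 3D (SD, n = 3).

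**Figure D5:**
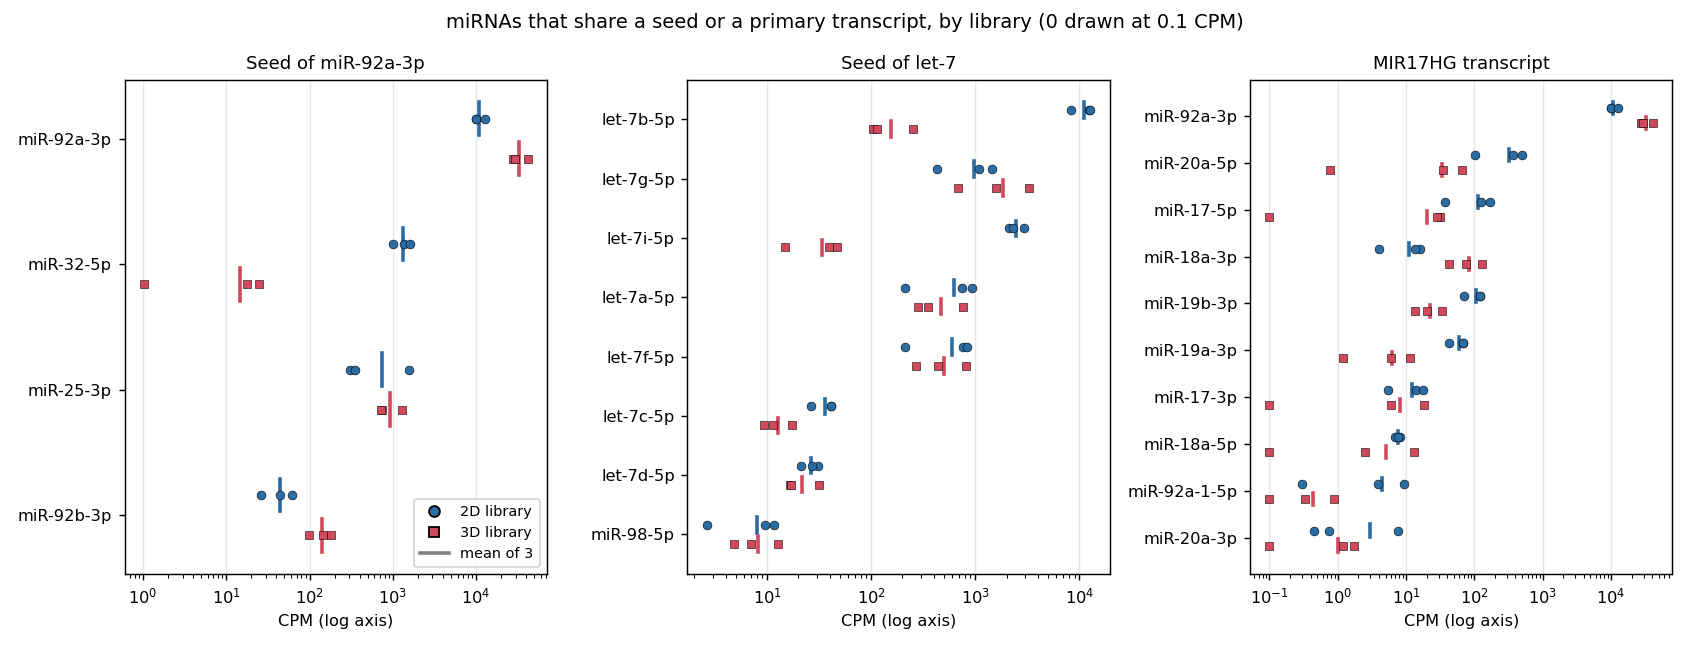
CPM (log axis) in each library for miRNAs that share the seed of miR-92a-3p or of let-7a-5p, or that lie within MIR17HG. Members above 5 CPM in at least 1 library are shown, and a value of 0 is drawn at 0.1 CPM. Members of 1 seed family differ in direction: miR-32-5p, let-7b-5p and let-7i-5p lie lower in all 3D libraries, miR-92a-3p and miR-92b-3p higher.

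MiR-221-3p and miR-222-3p, neighbours on the X chromosome, moved together. MiR-221-3p held 1.94%, 2.04% and 2.91% of miRNA counts in 2D and 0.537%, 0.438% and 0.358% in 3D, and its share fell (log2 -2.37, SE 0.55, adjusted p = 0.0027). MiR-222-3p held 0.534%, 0.527% and 0.822% in 2D and 0.102%, 0.0949% and 0.140% in 3D (-2.48, SE 0.62, adjusted p = 0.0074). The ranges of both are apart, and the call of miR-222-3p ended without 3D library B (adjusted p = 0.065).

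Among the miRNAs that fell, 7 of 29 had no count in any 3D library, and miR-592 and both arms of miR-660 are described with 3 others that were at or near 0. MiR-592, which lies in the GRM8 gene (chr7:127058148-127058169, minus strand), had 358, 588 and 686 CPM in 2D and 0, 0.912 and 0 CPM in 3D (log2 -7.57, SE 1.11, adjusted p = 3.2e-07). MiR-660-5p had 4163, 6289 and 3825 CPM in 2D and 35.2, 21.1 and 16.7 CPM in 3D (-4.89, SE 0.73, adjusted p = 4.2e-07). MiR-660-3p had 63.5, 62.1 and 38.9 CPM in 2D and no count in 3D, which makes it at least 557-fold lower with a floor of 3 counts over the group. MiR-150-3p was likewise at 0 in 3D, from 65.4, 62.1 and 15.9 CPM in 2D, at least 485.6-fold lower. MiR-338-5p (2921, 2799 and 497 CPM in 2D, 21.001, 3.06 and 4.43 CPM in 3D) and miR-499a-5p (326, 473 and 354 CPM in 2D, 4.44, 1.89 and 0 CPM in 3D) also fell in all 3 ways. The calls of these 6 miRNAs within the class held without each of the 6 libraries, and with the 6 libraries alone those of miR-660-5p and miR-660-3p did (adjusted p = 0.0015 and 0.049).

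MiR-660 belongs to a run of miRNAs inside the CLCN5 gene (chrX:50003167-50014670), with 16 entries from miR-188, miR-362, miR-500, miR-501, miR-502, miR-532 and miR-660. Their summed CPM was 9062, 11709 and 9297 in 2D and 300.2, 145.5 and 143.2 in 3D. In 14 of the 16 all 3D values lay under all 2D values, as they did in 65.5% of all features tested, and 15 of 16 passed as lower against library totals, where 52% of all features did. Within the class 5 passed as lower and 1 as higher, with a median of -2.57. The 1 higher entry was miR-501-5p, with 2.97, 6.25 and 0.835 CPM in 2D and 11.2, 12.8 and 11.2 CPM in 3D (log2 4.67, SE 1.33, adjusted p = 0.027), while the other arm of the same hairpin, miR-501-3p, had 478, 404 and 873 CPM in 2D and 13.3, 4.17 and 21.7 CPM in 3D (-2.74, adjusted p = 0.032). Either arm of miR-501 lost its call in 4 of 6 fits that left out a library (without 2D A, 2D C or 3D B for both, and without 2D B for miR-501-5p or 3D A for miR-501-3p; adjusted p up to 0.17 and 0.23). MiR-502-3p (-2.57, adjusted p = 0.012) lost it in 4 as well (2D C, 3D A, 3D B or 3D C, up to 0.095), whereas miR-660-5p, miR-660-3p and miR-188-5p (-3.33, adjusted p = 0.0051) kept theirs.

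The cluster that gives rise to miR-92a-3p behaved differently. Of 12 mature entries inside MIR17HG on chromosome 13, miR-92a-3p and miR-18a-3p were higher in 3D in all 3 ways. MiR-18a-3p had 16.0, 13.6 and 3.95 CPM in 2D and 131, 76.1 and 42.2 CPM in 3D (log2 5.58, SE 1.06, adjusted p = 0.0001). MiR-19b-1-5p also passed, on counts of 3D library B alone (1.37 CPM). MiR-17-5p (126.02, 172 and 37.1 CPM in 2D, 31.2, 28.6 and 0 CPM in 3D), miR-19b-3p (122.2, 120 and 70.6 CPM, against 33.7, 20.1 and 13.7 CPM) and miR-20a-5p (364, 498 and 101 CPM, against 65.1, 34.5 and 0.766 CPM) lay lower in CPM in every 3D library. All 3D values lay under all 2D values in 65.5% of all features tested too, and none of these 3 passed within the class (adjusted p = 0.91, 0.72 and 0.62). MiR-92a-3p can also come from the miR-106a-363 cluster on the X chromosome, and these counts do not part the 2 sources.

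Other miRNA groups are given by their counts within the class, where 12.1% of tested miRNAs were higher and 5.74% lower. In the miR-200 family, which keeps epithelial cells epithelial, 3 of 9 tested members were higher and 1 was lower (median 0.72). MiR-200c-3p held 0.0405%, 0.0379% and 0.0298% of miRNA counts in 2D and 0.281%, 0.299% and 0.298% in 3D (log2 3.02, SE 0.55, adjusted p = 6.3e-05), and miR-200b-3p rose as well (2.69, SE 0.51, adjusted p = 0.0001), whereas both differed little against library totals (0.28 and 0.01, neither passing). Among miRNAs of intestinal epithelium 2 of 11 passed, both as higher. MiR-375-3p held 0.0728%, 0.0714% and 0.365% in 2D and 2.04%, 1.41% and 1.69% in 3D (3.33, SE 0.63, adjusted p = 0.0001). MiR-194-5p (1.76, adjusted p = 0.035) no longer passed when 2D A, 2D B, 3D A or 3D B was left out (up to 0.21). Of 21 miRNAs known from colorectal tumours, a list that holds miR-21, miR-221, miR-222 and miR-592, 4 were higher and 6 lower (median 0.55).

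The miR-320 family, made without Drosha, held a large part of the 2D pool. Members a to e summed to 23.4%, 16.1% and 17.2% of miRNA counts in 2D and to 10.0%, 8.87% and 15.0% in 3D. The ranges are apart by little. MiR-320a-3p and miR-320b, its largest members, did not pass within the class (-0.18, adjusted p = 0.90; -1.20, 0.14). Of the miR-29 and miR-30 family 4 of 15 were higher and 1 lower. The lower one, miR-29a-3p (-1.72, adjusted p = 0.044), did not pass in any of the 6 fits that left out a library (up to 0.32). In the group of miR-10, miR-99, miR-100 and miR-125, 3 of 13 were higher (median -0.21), among them miR-125b-5p with 4.30, 0 and 3.04 CPM in 2D and 5.62, 6.32 and 11.2 CPM in 3D (4.41, SE 0.88, adjusted p = 0.00027). MiR-4516, an entry that overlaps other structured RNA, had 2.67, 0.551 and 0.304 CPM in 2D and 35.2, 13.1 and 20.0 CPM in 3D (6.88, SE 1.60, adjusted p = 0.0032). Its call ended without 2D library B or C (up to 0.058).

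Transfer RNAs rose with TMM in 31 of 49 entries (63.3%), where 5.02% of all features did. Against the class 1 of 49 (2.04%) rose, tRNA-Thr-TGT. There 2 (4.08%) fell, tRNA-Tyr-GTA (-2.16, adjusted p = 0.045) and tRNA-Ser-CGA (-3.23, adjusted p = 0.017). Of all features 1.58% rose and 1.46% fell within their class, so these counts are few and near those shares. TRNA-Thr-TGT had 18.7, 5.18 and 16.98 CPM in 2D and 525, 413 and 556 CPM in 3D, with no overlap and a mean 36.6 times as high. The rise passed in all 3 ways (4.27 within tRNA, SE 0.80, adjusted p = 9.3e-05) and without each library. The other threonine tRNAs, tRNA-Thr-AGT and tRNA-Thr-CGT, did not pass within the class (0.81 and 1.13, adjusted p = 0.51 and 0.50). TRNA-Gly-GCC, whose 5′ fragments are common outside cells, had 677, 512 and 294 CPM in 2D and 1824, 2478 and 1965 CPM in 3D and passed with TMM (4.89, SE 0.87, adjusted p = 9.4e-06) and against library totals (2.08, SE 0.65, 0.011) but not within tRNA (1.06, 0.18). Of 9 tRNAs known for 5′ fragments 8 were higher with TMM, and of 40 other nuclear tRNAs 23 were (median 4.33 and 3.91). TRNA-Lys-TTT shows what library C did to the class. It had 172, 158 and 2013 CPM in 2D and 519, 483 and 31887 CPM in 3D, taking 53.6% of all tRNA in 3D library C, and it did not pass on any of the 3 scales. Of the mitochondrial tRNAs, the entry TS2 had 13.9, 10.3 and 61.3 CPM in 2D and 133.4, 195.6 and 259 CPM in 3D (3.20 within its class, SE 0.79, adjusted p = 0.0062). It lost that call without any 1 of the 2D libraries (up to 0.096). The class share of mitochondrial tRNA overlapped, 0.0445%, 0.0430% and 0.185% in 2D and 0.0827%, 0.0659% and 0.0725% in 3D.

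Ribosomal RNA fragments came mostly from 28S in both cultures. The 28S entry had 19239, 16070 and 14650 CPM in 2D and 11622, 11736 and 19427 CPM in 3D, and it took 83.8% to 88.3% of rRNA in 2D and 73.4% to 79.6% in 3D, ranges that do not overlap. Its difference was -0.16 within the class (SE 0.37, adjusted p = 0.87) and -0.22 against library totals (0.76). With TMM it passed as higher (2.34, adjusted p = 0.041), a call that ended without 2D A, 2D B, 3D B or 3D C (up to 0.21). The 5.8S entry (448, 300 and 256 CPM in 2D, 764, 568 and 584 CPM in 3D) passed as higher with TMM (3.62, SE 0.87, adjusted p = 0.0025) and not against library totals (0.93, 0.23).

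Among small nuclear RNAs the leading U2 RNA held its place while copies of U7 and RNU2-2P fell. RNU2-1 took 30.2%, 29.7% and 27.2% of snRNA in 2D and 36.4%, 36.5% and 25.9% in 3D (log2 0.18, SE 0.52, adjusted p = 0.90). RNU2-2P, a second U2 gene on chromosome 11 (chr11:62841619-62841809, minus strand), had 1213, 940 and 6019 CPM in 2D and 86.5, 62.0 and 120.1 CPM in 3D (-3.73, SE 0.82, adjusted p = 0.0034), also when the 6 libraries were fitted alone (0.042). U7 is the RNA that trims histone mRNA ends. RNU7-1 had 2612, 2679 and 3718 CPM in 2D and 661, 404 and 443 CPM in 3D and did not pass within snRNA (-1.60, adjusted p = 0.16). Its copy RNU7-20P had 308, 289 and 293 CPM in 2D and 4.67, 6.79 and 3.94 CPM in 3D (-4.75, SE 0.89, adjusted p = 9.2e-05), and 6 such U7 copies with nearly equal counts fell in all 3 ways. With TMM the call of RNU7-20P ended without 2D library C or any 1 of the 3D libraries (up to 0.15). U1 genes and copies summed to 17.5%, 15.6% and 9.26% of snRNA in 2D and to 4.69%, 2.92% and 2.26% in 3D. Entries of U4 gave the 8 snRNAs that rose in all 3 ways, all pseudogene copies with a mean of 0 to 0.479 CPM in 2D and 11.5 to 13.5 CPM in 3D. Like the U7 copies, these had nearly equal counts, so they are not 8 separate results. RNU4-1 and RNU4-2 did not pass within the class (adjusted p = 0.20 and 0.30). In the class as a whole 9 of 277 (3.25%) were higher and 17 (6.14%) lower, where 1.58% and 1.46% of all features were.

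SnoRNA as a class was lower in 3D, and SNORD123 and SNORD127 fell within it. SNORD33, the largest, held 46.4%, 45.7% and 55.8% of snoRNA in 2D and 57.9%, 43.0% and 44.1% in 3D (log2 -0.03, SE 0.56, adjusted p = 0.99). SNORD123, a C/D box snoRNA inside the SNHG18 host transcript (chr5:9548836-9548905, plus strand), had 929, 775 and 375.1 CPM in 2D and 11.8, 5.02 and 7.83 CPM in 3D. Its share fell by 3.62 (SE 0.78, adjusted p = 0.00095), also with each library left out. SNORD127 had 166, 173 and 65.8 CPM in 2D and 4.14, 1.17 and 0 CPM in 3D (-3.62, SE 0.96, adjusted p = 0.014), a call that ended without 3D library C (0.11). Of 267 snoRNAs, 31 (11.6%) rose within the class and 4 (1.5%) fell, where 1.58% and 1.46% of all features did. With the 6 libraries alone, where 89 snoRNAs were tested, SNORD123 (adjusted p = 0.025) was the 1 that passed, and 19 were higher at an unadjusted p below 0.05. H/ACA box snoRNAs gave 17 of the 31 out of 89 tested, and C/D box snoRNAs 14 out of 159. The rises were of rare entries: the 13 that passed in all 3 ways had a mean of at most 0.705 CPM in 2D and of 0.636 to 12.3 CPM in 3D. An H/ACA example with higher counts is SNORA75 (ENSG00000206885), with 7.27, 4.501 and 3.08 CPM in 2D and 28.1, 17.2 and 15.0 CPM in 3D (4.83, SE 0.92, adjusted p = 0.0001).

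Long noncoding and retroviral entries fell with their class, and few passed as lower within it. The median log2 difference within the class was -1.64 for long noncoding and -0.43 for retroviral entries, against -1.08 over all features. With the 6 libraries alone, 1177 of 3813 long noncoding entries were lower and 21 higher at an unadjusted p below 0.05 (edgeR within the class). Of 686 retroviral entries 99 were lower and 7 higher, and of all 5432 features 1497 and 163. Of 4783 long noncoding entries, 2829 were lower against library totals, 166 (3.47%) with TMM and 24 (0.502%) within the class. Over all features these shares were 52%, 3.51% and 1.46%. In 3569 of the entries all 3D values lay under all 2D values, as in 65.5% of all features. ELDR, next to EGFR, had 471, 263 and 112 CPM in 2D and 28.1, 22.1 and 8.34 CPM in 3D, and its share of the class did not pass (-0.29, SE 0.77, adjusted p = 0.90). Of the 24 that fell in all 3 ways 22 were at 0 in every 3D library, with a mean of 12.0 to 28.98 CPM in 2D over the 24. The entry EPCAM-DT (chr2:47192405-47345074, minus strand) went the other way, with 37.7, 23.7 and 13.2 CPM in 2D and 46.1, 75.3 and 42.5 CPM in 3D. It took 0.0528%, 0.0504% and 0.0519% of the class in 2D and 1.03%, 1.92% and 0.896% in 3D (4.63, SE 0.76, adjusted p = 4.5e-06). Its span holds BCYRN1, a short cytoplasmic RNA on the opposite strand (chr2:47335315-47335514), and whether the counting used strand is not given in the sources used here, so reads of the 2 cannot be told apart. MALAT1, a nuclear transcript, also rose as a share (4.30, SE 0.99, adjusted p = 0.0027), from 8.45, 4.78 and 5.47 CPM to 7.69, 8.28 and 22.6 CPM, and not against library totals (1.05, 0.37). Its call ended without 2D library B (0.052). Among 744 retroviral entries 498 were lower against library totals and 3 (0.403%) within the class, where 52% and 1.46% of all features were. MSTA, the largest, had 1462, 949 and 296 CPM in 2D and 89.7, 63.0 and 19.9 CPM in 3D (-0.19 within the class, SE 0.65, adjusted p = 0.92).

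The same culture change was set against the sEV of the same 2 cultures, 3 libraries each. Y RNA took 13.2% ± 1.20 (SD, n = 3) of 2D sEV counts and 20.4% ± 6.11 of 3D sEV counts, miRNA 52.0% ± 3.83 and 29.4% ± 9.10, tRNA 20.7% ± 1.62 and 10.1% ± 5.47, and rRNA 5.86% ± 0.893 and 19.2% ± 3.37. In sEV 188 of 7045 features (2.67%) were higher in 3D and 3 (0.0426%) lower with TMM. The difference between the exomere and the sEV effect was tested itself, and 79 features (1.12%) had the higher and 37 (0.525%) the lower 3D effect in exomeres. The effect of miR-21-5p was lower in exomeres by 4.13 (log2 -4.13, SE 1.08, adjusted p = 0.019), with a difference of -0.20 in sEV (adjusted p = 0.96), but it did not pass in 7 of 12 fits that left out 1 library (2D exomere C, 3D exomere B or C, any 2D sEV library or 3D sEV A, adjusted p up to 0.093). That of miR-92a-3p was higher by 3.85 (SE 1.10, adjusted p = 0.033), with 0.22 in sEV, and did not pass in 7 of 12 such fits (3D exomere A or B, 2D sEV A or B, any 3D sEV library, up to 0.14) or with library totals (0.12). RNY4 differed by 5.33 (SE 1.10, adjusted p = 0.0013), with 1.23 in sEV, and passed in all 18 alternatives, whereas for RNY1 the difference of 2.39 did not pass (SE 1.06, adjusted p = 0.25). TRNA-Gly-GCC was the clearest case among tRNAs, at 107628 ± 12938 CPM in 2D sEV and 19515 ± 1836 CPM in 3D sEV against the rise in exomeres (6.37, SE 1.14, adjusted p = 0.00018). SNORD123 differed the other way (-4.86, SE 1.31, adjusted p = 0.022), with 99.5 ± 34.6 CPM in 2D sEV and 113 ± 11.04 CPM in 3D sEV, and did not pass in 8 of the 12 fits (3D exomere B or C or any sEV library, up to 0.11).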

How the data were processed

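Small RNA was sequenced in 38 libraries of 11 groups; 6 are compared here. The authors deposited 1 table of expected counts per small RNA feature (22549 features), not scaled between libraries; 6.71% of the values are not whole (tolerance 1e-06), so reads of near-identical copies are divided. Bowtie 1.3.1, cutadapt 4.5, FastQC 0.12.1 and the build GRCh38.p13 are named, without their order, in the submitters' processing notes; the counting tool, annotation and use of strand are not given in the sources used here. RNA classes are the prefixes of the feature names. Counts were rounded, filtered (filterByExpr, minimum count 10) and fitted with edgeR 4.0.16 (glmQLFit and glmQLFTest, robust, R 4.3.3) on 11 group means, with TMM and, in a second fit, the class total per library as offset. P-values were adjusted by Benjamini-Hochberg over the 7045 features tested. Class shares were compared by exact permutation over 20 assignments. Scripts were tested on simulated data. Alternatives were library totals, totals outside Y RNA, other scaling and filters, DESeq2 1.42.0, a replicate block and leaving out libraries. Named features are those with the largest changes (no overlap, and a mean of 50 CPM or more in the higher culture), the most abundant of each class and list, and a set of single features; seed, cluster and copy members, let-7d-5p, let-7e-5p and miR-98-5p, MALAT1 and the RNY5 position were added after their values were seen. Members and lists were chosen with earlier results of these data known. Of 1559 miRNA entries 1388 matched RefSeq by name, all 1388 with the same sequence.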

Additional observations from a re-analysis of the deposited data

Results flagged for a closer look

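In 14 named features the change from 2D to 3D culture differed between UC exomeres and UC sEV by the test of that difference (edgeR with TMM, adjusted p below 0.05). Of these, 10 are the 5 largest in each direction with 50 CPM in 1 of the 4 groups and no overlap between the exomere cultures, and miR-21-5p (-4.13, 0.019), miR-92a-3p (3.85, 0.033), RNY4 (5.33, 0.0013) and SNORD123 (-4.86, 0.022) are the others. The values are the log2 effect in exomeres minus that in sEV. The effect was higher in exomeres for EPCAM-DT (6.30, adjusted p = 0.0013), tRNA-Gly-GCC (6.37, 0.00018), tRNA-Glu-CTC (5.89, 0.0011), an unnamed Y RNA copy, Y_RNA/ENSG00000207105 (7.78, 0.0013) and RNY1P12 (5.62, 0.015). It was lower for RNU7-20P (-6.02, adjusted p = 0.0080), SNORD127 (-6.75, 0.0052), SNORD6 (-9.83, 0.0014), SNORA75B (-6.23, 0.013) and SNORA14B (-9.75, 0.0013). For these snoRNAs the 3D sEV held more than the 2D sEV (SNORD6 30.1 ± 13.4 and 106.3 ± 74.0 CPM, SNORA14B 8.98 ± 4.64 and 74.5 ± 55.3 CPM), while both were at 0 in all 3D exomere libraries. EPCAM-DT had 1544 ± 498 CPM in 2D sEV and 175 ± 74.4 CPM in 3D sEV. The differences of SNORA75B and RNY1P12 did not pass in 6 and 7 of 18 alternatives, that of RNU7-20P did not without 2D sEV library A or B, and that of SNORD127 did not without 3D sEV library A.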

How the results depend on the processing

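No library letter is tied to a pool, the 2 cultures differ in more than geometry, and 3 libraries a group limit what can pass. With TMM 601 of 7045 features passed (8.53%). This became 3740 with library totals (53.1%; 80 higher, 3660 lower), 1831 with RLE factors (20.3% of 9026; 187 higher), 117 without a filter (0.526% of 22247), 1473 with the 6 libraries alone (27.1% of 5432; 198 higher), 171 with miRNA alone (42.1% of 406; 68 higher), 1512 with DESeq2 (18.4% of 8233; 187 higher) and 627 outside Y RNA (403 lower). Leaving out a library gave 2.53% (2D A) to 5.401% (3D A) of the features tested, with 2.57% without 2D B, 4.48% without 2D C, 3.81% without 3D B and 3.30% without 3D C. Within the class 111 passed as higher and 103 as lower, against 25 in all with the 6 libraries alone, 127 without a filter and 330 with class totals without the largest feature; leaving out a library gave 124 (2D B) to 208 (3D A). The 116 differences from sEV became 75 with library totals (8 higher, 67 lower), 34 without a filter, and 20 (without 2D sEV A) to 99 when a library was left out. Classes that did not overlap numbered 6, and 6 to 8 when a library was left out. With the letter as a replicate block on the 6 libraries 164 passed with TMM (3.02%; 29 lower) and 164 within the class (54 higher), and 152 for the difference from sEV. Same-letter libraries deviated together with r of 0.039 (A), 0.093 (B) and 0.219 (C), 2D A correlated best with 3D B (0.112), and the C libraries correlated negatively with the other letters (-0.175 to -0.0932); A and B thus miss the 0.1 asked of every pair, and what the shared letter of the C libraries stands for is not known. Signs turned for the share difference of mitochondrial tRNA (0.221 points outside Y RNA, 0.0531 on the log2 scale, -0.0411 to 0.0300 when a library was left out), of rRNA (5.60 outside Y RNA; 0.0944 without 2D A, 0.1195 without 3D A, 0.140 without 3D B, and down to -0.446 without 3D C) and of snRNA (17.8 outside Y RNA). Among named features that passed in the main or the alternative fit, signs turned against library totals for miR-335-5p (-1.94), let-7a-5p (-0.43), let-7f-5p (-0.26), miR-17-5p (-2.49), miR-19b-3p (-2.21) and 28S rRNA (-0.22). The cause was not tested beyond the scaling. Turns where neither fit passed are not listed, such as that of RNU11 with TMM (-1.01 to 4.10 when a library was left out). Of 1368 alternatives for 94 named features with TMM 1137 kept the call, of 940 within the class 834, and of 252 for 14 differences from sEV 211. Those that passed in both fits also kept their direction, while for those that passed in neither the direction was not counted.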
